A study of Mus musculus with 19 samples.

Results

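The comparison set the locus coeruleus of CnB1 knockout mice against that of control mice, both after normal sleep. Its members were chosen by their labels: 9 of the 19 RNA sequencing libraries of the series, 5 of the group CnB1KO_S6 and 4 of the group WT_S6. WT_S6 libraries came from mice labelled ABC-Ctrl and CnB1KO_S6 libraries from mice labelled ABC-CnB1KO. Tissue of both genotypes was dissected 4 weeks after AAV-hSyn-Cre was injected, so the control mice had received the same virus, in which the human synapsin promoter drives Cre recombinase in neurons. Brains were cut into 200 µm slices and the locus coeruleus was dissected from them, so each library holds neurons, which the promoter targets, together with glia and vessels. The other 10 libraries came from mice kept awake for 6 h (WT_SD6, n = 5, and CnB1KO_SD6, n = 5). They entered the fit for its estimate of the spread and are given as a second set of libraries with the same genotype contrast. The sources used here do not give strain, substrain, age, sex, litter or day, nor whether both genotypes share a background. The labels call the libraries biological replicates without tying them to animals, so the p-values measure the spread between libraries.

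Calcineurin is a protein phosphatase switched on by calcium and calmodulin. It consists of a catalytic subunit (encoded by Ppp3ca, Ppp3cb or Ppp3cc) and the regulatory subunit CnB1 (encoded by Ppp3r1), without which the enzyme is not active. Its substrates include NFAT and CRTC transcription coactivators, ion channels and synaptic proteins, and it acts against several kinases at the synapse. The locus coeruleus is the main noradrenergic nucleus of the brain, and its neurons fire during wakefulness and become quiet in sleep.

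Counts were listed for 14443 genes. Library totals ran from 6260061 to 7002015 counts in WT_S6 and from 3887298 to 7128244 in CnB1KO_S6. Library 13 of CnB1KO_S6 was the shallowest, and it also stood apart from the other 4 knockout libraries in abundant transcripts such as mt-Nd5, at 491 CPM (TMM-scaled counts relative to the library total) against 288 to 334. Values without it are given for Ppp3r1, Klf2 and 6 of the gene lists, and of the 7 genes that passed the test Klf2 alone lost its call without it. The noradrenergic identity of the tissue was present in each group: the enzymes of noradrenaline synthesis Th and Dbh stood at 111 ± 31.3 and 204 ± 40.7 CPM (SD, n = 4) in WT_S6 and at 121 ± 19.8 and 223 ± 45.5 CPM (SD, n = 5) in CnB1KO_S6. None of 13 noradrenergic markers had an unadjusted p under 0.05 between genotypes, beside 10.1% of all genes. Of the 13, 12 had a positive log2 fold change, with a median of 0.11. Cerebellar granule cell markers were present too and varied widely, with a summed level of 612 to 1980 CPM in WT_S6 and of 408 to 1514 CPM in CnB1KO_S6.

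The genotype difference after sleep was small for almost all genes, and 7 of 14443 passed the test. Of these, 3 were higher in the knockout (Gm28438, Wdfy1 and Klf2; 0.0208% of all genes) and 4 were lower (Crb1, Aim2, Snapc1 and Meaf6; 0.0277%). A gene passed at an adjusted p under 0.05 in edgeR's quasi-likelihood F test with Benjamini-Hochberg adjustment over all genes, which 0.0485% of genes reached. The median absolute difference over all genes was 0.08 on the log2 scale, and 90% of genes lay within 0.27 and 99% within 0.62. A positive log2 fold change was found for 7728 genes and a negative one for 6715. An absolute log2 fold change over 1 was found for 10 genes in the direction of the knockout and for 13 in that of the control. Of all genes, 10.1% had an unadjusted p under 0.05, 902 higher (6.25%) and 554 lower (3.84%) in the knockout. The CPM of the 5 knockout libraries did not overlap those of the 4 control libraries for 4.32% of genes, with 368 higher (2.55%) and 256 lower (1.77%).

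**Figure D1:**
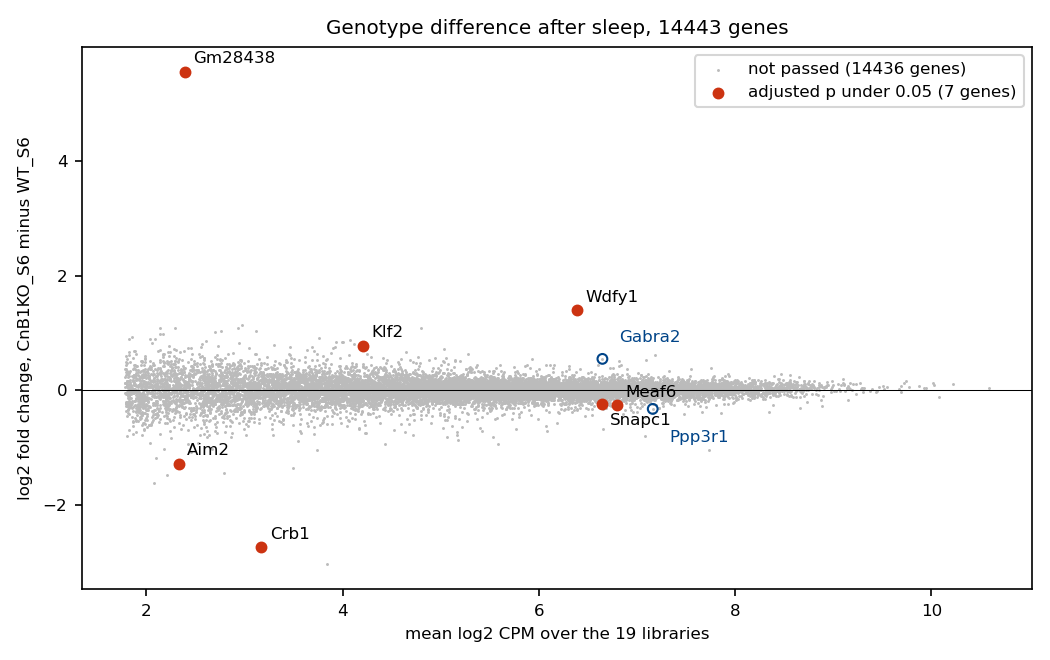
Fitted log2 fold change of CnB1KO_S6 against WT_S6 for each of 14443 genes (vertical axis) by its mean log2 CPM over the 19 libraries (horizontal axis), with the 7 genes that passed in red and Ppp3r1 and Gabra2, which did not pass, as open circles. Gm28438 lies at 5.55 and Crb1 at -2.73, far outside the cloud, whereas Snapc1 and Meaf6 lie near it at -0.24 and -0.25.

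The targeted gene was lower in the knockout libraries but was not among the 7. Ppp3r1 (chromosome 11, 17159263 to 17200375 on GRCm38) stood at 162, 163, 155 and 164 CPM in the WT_S6 libraries and at 127, 125, 152, 121 and 120 CPM in the CnB1KO_S6 libraries. All 5 knockout libraries lay below all 4 control libraries, and library 13, with 152 CPM, lay nearest to them. The log2 fold change was -0.32 (SE 0.06, n = 4 and 5), with an adjusted p of 0.104 by edgeR. Without library 13 it was -0.39, with an adjusted p of 0.00233. In the FPKM (fragments per kilobase of transcript, relative to the mapped total) that the authors deposited, Ppp3r1 stood at 62.9 ± 2.03 (SD, n = 4) against 49.0 ± 3.63 (SD, n = 5), and passed with an adjusted p of 0.0139 by limma. The sources used here do not say which exons the knockout removes, so the count over the whole gene shows the labels' direction but not the share of cells that lost the gene. In tissue, fewer cells of a type and less RNA per cell cannot be told apart. No gene near Ppp3r1 passed. Within 5 Mb 2 of 24 measured neighbours, or 8.33%, had an unadjusted p under 0.05, and within 20 Mb 16 of 167, or 9.58%, beside 10.1% of all genes.

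The other calcineurin genes did not pass. Of 16 genes of subunits, inhibitors and partners, with Ppp3r1 among them, 15 had counts and 0 passed, beside 0.0485% of all genes. The catalytic subunits Ppp3ca and Ppp3cb had log2 fold changes of -0.08 (95% interval -0.26 to 0.09) and -0.00 (95% interval -0.12 to 0.12). Ppp3cc, the third catalytic subunit, stood at 25.8 ± 1.25 CPM (SD, n = 4) in WT_S6 and 28.8 ± 1.20 CPM (SD, n = 5) in CnB1KO_S6, with no overlap between libraries. Its log2 fold change was 0.16 with an adjusted p of 0.437 by edgeR, and in the deprived libraries it was -0.15 with an adjusted p of 0.266. Rcan1, an inhibitor of calcineurin that is itself induced by calcineurin and NFAT, had a log2 fold change of 0.17 with an adjusted p of 0.419. The inhibitors Rcan2 and Rcan3 had 0.09 and -0.08. Calm2 and Calm3, which encode calmodulin, had log2 fold changes of 0.07 and 0.12, and in both library 13 was the highest knockout library. Over the 15 genes, Ppp3r1 included, 8 had a positive and 7 a negative fold change, with a median of 0.06, beside 0.01 for all genes. Without library 13 these became 3 and 12, with a median of -0.03, and 1 of the 15 passed, Ppp3r1.

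**Figure D2:**
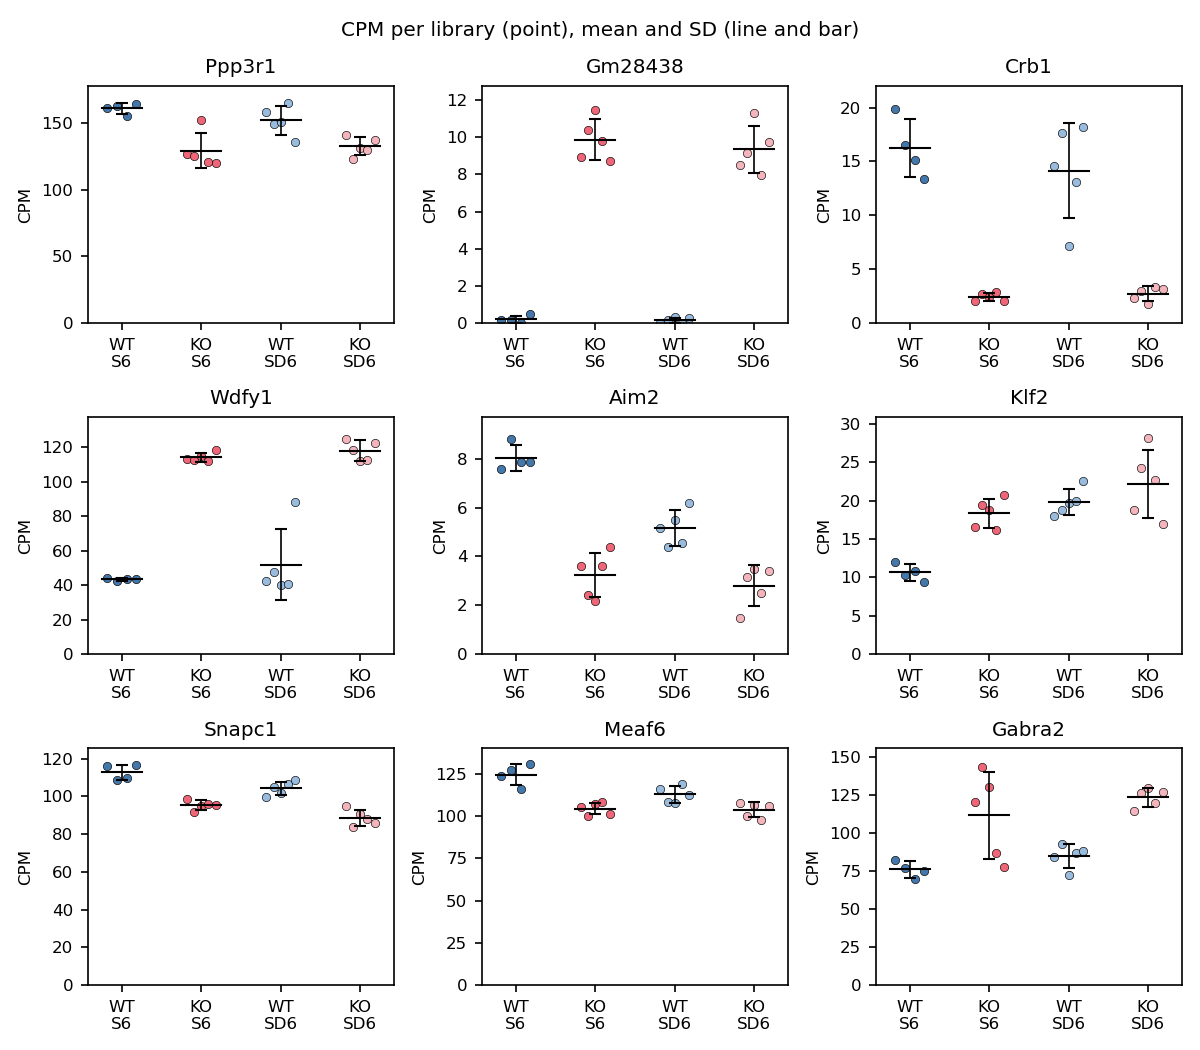
CPM per library (points) in the 4 groups, with the mean and SD, for Ppp3r1, the 7 genes that passed after sleep and Gabra2. The axes start at 0. In Wdfy1 the 5 knockout libraries after sleep lie between 112 and 118 CPM and the 4 controls between 42.1 and 44.0 CPM, whereas in Gabra2 2 of the knockout libraries after sleep lie at or near the control level.

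The gene with the strongest fitted change in counts was Gm28438, an unprocessed pseudogene on chromosome 1 (24612775 to 24613119, reverse strand) whose sequence is nearly that of the mitochondrial gene mt-Nd3, which encodes a subunit of complex I of the respiratory chain. Its annotated transcript of 345 bases differs from the first 345 of the 348 bases of mt-Nd3 (mitochondrial genome 9459 to 9806) at 1 position, the substitution T3C, counted from 1 at the 5′ end of the mt-Nd3 transcript, with the mt-Nd3 base first. The first 40 bases of both are shown because the single base that separates them, in capitals, lies there, from the GENCODE M21 transcripts of GRCm38.
mt-Nd3: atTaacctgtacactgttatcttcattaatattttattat
Gm28438: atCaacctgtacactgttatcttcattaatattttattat
The raw counts of Gm28438 were 1, 1, 0 and 3 in the WT_S6 libraries and 62, 65, 42, 71 and 56 in the CnB1KO_S6 libraries. No control library came near a knockout library. The rate per library total was 50.9 times that of the control, with an exact 95% interval of 21.6 to 158 that covers counting error only, and the adjusted p by edgeR was 5.37e-08. The deposited FPKM did not show this difference: Gm28438 stood at 1273 ± 108 FPKM (SD, n = 4) in WT_S6 and at 1125 ± 111 FPKM (SD, n = 5) in CnB1KO_S6, with an adjusted p of 0.753 by limma. mt-Nd3, which has FPKM but no counts here, stood at 1275 ± 97.1 against 1119 ± 120 FPKM, nearly the same levels as its copy. Reads from near-identical copies can be divided in different ways by different counting, so the value of Gm28438 is uncertain, and which copy gave rise to its reads was not tested.

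Both transfer RNA genes that flank mt-Nd3 in the mitochondrial genome differed between genotypes in FPKM, which is the only unit listed for them. mt-Tg, the transfer RNA for glycine (9391 to 9458, directly before mt-Nd3), stood at 58.7, 63.4, 53.7 and 63.1 FPKM in WT_S6. It stood at 15.3, 20.2, 13.1, 14.8 and 14.6 FPKM in CnB1KO_S6. The groups were far apart, with a log2(FPKM + 1) difference of -1.88 and an adjusted p of 7.76e-05 by limma. mt-Tr, the transfer RNA for arginine (9808 to 9875, just after mt-Nd3), fell from 48.7 ± 0.99 FPKM (SD, n = 4) to 27.5 ± 3.30 FPKM (SD, n = 5), with a difference of -0.81 and an adjusted p of 0.00280. Both passed in the deprived libraries too, with differences of -1.75 and -0.84. In FPKM 9 of 17571 symbols passed, or 0.0512%. They were mt-Tg, mt-Tr and Clic3, which lack counts, and Wdfy1, Crb1, Aim2, Ppp3r1, Zfas1 and Klf2. The chloride channel gene Clic3 fell from 2.45 ± 0.54 to 0.95 ± 0.37 FPKM and Zfas1, a host of small nucleolar RNAs, from 21.8 ± 0.67 to 17.1 ± 1.13 FPKM (SD, n = 4 and 5). Mature transfer RNAs have no long poly(A) tail and are short for this kind of library, so the values are given as fragments assigned there and not as the level of transfer RNA. The 7 protein-coding mitochondrial genes with counts had log2 fold changes from 0.05 to 0.12, and none passed. The sign of these values can rest on single libraries. When a library was left out, mt-Nd4 ran from -0.05 to 0.19 and mt-Nd5 from -0.05 to 0.17. In library 13 both stood apart, at 165 and 491 CPM against 90.4 to 106 and 288 to 334 CPM in the other knockout libraries.

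Crb1 and Wdfy1 showed the firmest differences of genes that code for protein, and both lie on chromosome 1. Crb1 (139197056 to 139377100) encodes a cell polarity protein best known from the retina. It stood at 19.9, 16.5, 15.2 and 13.4 CPM in the WT_S6 libraries and at 2.02, 2.72, 2.46, 2.90 and 2.03 CPM in the CnB1KO_S6 libraries, so that the lowest control was well above the highest knockout library. Crb1 fell 6.64-fold (log2 fold change -2.73, SE 0.24, adjusted p 7.07e-06 by edgeR). Wdfy1 (79702262 to 79776143) encodes a protein with WD repeats and a FYVE domain that binds endosomal membranes. It stood at 44.0, 42.1, 43.8 and 43.7 CPM in WT_S6 and at 113, 113, 115, 112 and 118 CPM in CnB1KO_S6. Both groups were tight, with a gap more than 10 times either SD. Wdfy1 rose 2.63-fold (log2 fold change 1.40, SE 0.17, adjusted p 4.24e-04). Crb1 and Wdfy1 passed in FPKM as well, at 2.39 ± 0.38 against 0.34 ± 0.05 FPKM and 11.9 ± 0.21 against 24.5 ± 0.56 FPKM (SD, n = 4 and 5).

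Aim2 (chromosome 1, 173350879 to 173466040) encodes a sensor of cytosolic DNA that assembles an inflammasome. Its levels were 7.57, 8.80, 7.87 and 7.87 CPM in WT_S6 and 3.61, 2.40, 2.18, 3.60 and 4.37 CPM in CnB1KO_S6. The knockout libraries were all below the controls. Aim2 fell 2.42-fold (log2 fold change -1.27, SE 0.20, adjusted p 0.0158 by edgeR). By annotated position, Aim2, Gm28438, Crb1 and Wdfy1 made 4 of the 7 genes on chromosome 1, which holds 844 of the 14101 genes matched to the annotation. For Gm28438 this place is uncertain, because its reads may come from its near-identical mitochondrial copy mt-Nd3, which was not tested.

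These genes overlap a list of 6 genes known to vary between laboratory strains of mice, of which Crb1, Wdfy1, Gabra2 and Glo1 had counts. The list was drawn up with results of these data known, so neither the overlap nor the direction of its genes is independent evidence. Of the 4 measured genes, Crb1 fell and Wdfy1 rose. Glo1, which encodes glyoxalase, had a log2 fold change of 0.04. Gabra2 (chromosome 5, 70957597 to 71095849), which encodes the alpha 2 subunit of the GABA-A receptor, stood at 82.4, 76.8, 69.5 and 75.1 CPM in WT_S6 and at 120, 143, 130, 86.6 and 77.4 CPM in CnB1KO_S6. Libraries 11, 12 and 13 were well above the controls, whereas library 14 was just above them and library 15 lay within them. The log2 fold change of Gabra2 was 0.55 with an adjusted p of 0.200, and in the deprived libraries it was 0.54 with an adjusted p of 0.0945. Genotype and genetic background cannot be told apart where the background is not given.

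Klf2 rose in the knockout and is best known from vessels. Klf2 (chromosome 8, 72319033 to 72321656) encodes a zinc finger factor induced by blood flow in endothelial cells and present in lymphocytes. It stood at 11.98, 10.3, 10.9 and 9.41 CPM in WT_S6 and at 16.6, 19.4, 18.8, 16.2 and 20.7 CPM in CnB1KO_S6. The knockout libraries were all above the controls. Klf2 rose 1.72-fold (log2 fold change 0.78, SE 0.14, adjusted p 0.0378 by edgeR). The call rests on single libraries: without library 13 the adjusted p was 0.0777, with the fold change at 0.77. In the deprived libraries the fold change was 0.17 with an adjusted p of 0.487. WT_SD6 libraries stood at 18.02 to 22.6 CPM, about the level of the sleeping knockout libraries. The difference between the genotype contrasts was -0.61 with an unadjusted p of 0.00280 by edgeR. Klf2 was picked by its sleep contrast, which enters this difference, so that p is no independent evidence. No gene passed this test of the difference over all genes, beside 287 genes with an unadjusted p under 0.05 (1.99%).

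The genes with the next smallest p were 2 further genes active in vessels and Phaf1, and none passed. Klf4, a close relative of Klf2, stood at 10.9 ± 1.46 CPM (SD, n = 4) in WT_S6 and at 18.4 ± 2.51 CPM (SD, n = 5) in CnB1KO_S6, with a log2 fold change of 0.75 and an adjusted p of 0.102. Pdgfb, which encodes the growth factor by which endothelial cells recruit pericytes, stood at 28.5 ± 2.84 against 39.3 ± 2.59 CPM, with 0.46 and 0.0750. Neither gene's libraries overlapped between groups. Phaf1, whose product takes part in autophagy, stood at 49.8 ± 1.82 against 41.6 ± 3.10 CPM, with -0.26 and 0.104.

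Promoters of Klf2 and Klf4 were searched for letters that calcineurin-dependent factors are known to prefer, from 250 bases before to 50 after the start in RefSeq (GRCm38.p6). The letters were GGAAA (the core for NFAT) and CTA, any 4 letters, then TAG (a loose form of the core for MEF2). Both strands were searched, and the matches had no overlap between them. The Klf2 window held 1 match of each, and it is shown because Klf2 is the only called gene in this pair. GGAAA occurs in 61.3% and the loose MEF2 form in 3.69% of 32851 promoters of that length, and the Klf4 window held neither. A match is a run of letters and no evidence of binding. The window on chr8:72318812-72319111, forward strand, follows with both matches in capitals (GGAAA is read on the other strand).
Klf2: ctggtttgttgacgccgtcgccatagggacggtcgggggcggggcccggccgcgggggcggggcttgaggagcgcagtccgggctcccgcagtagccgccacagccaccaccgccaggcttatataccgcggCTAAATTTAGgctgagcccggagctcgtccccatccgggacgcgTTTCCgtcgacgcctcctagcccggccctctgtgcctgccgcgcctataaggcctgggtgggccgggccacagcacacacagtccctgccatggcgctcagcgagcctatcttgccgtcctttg

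Endothelial marker genes had higher values in the knockout libraries as a group, without any member passing the adjusted test. Of 10 markers, 10 had a positive log2 fold change, 8 had an unadjusted p under 0.05, beside 6.25% of all genes in that direction, and 6 did not overlap between groups, beside 2.55%. Their median fold change was 0.34, beside 0.01 for all genes. Markers of 1 cell type were read from the same libraries and can vary together, so the 10 are not separate observations. The list was also chosen with earlier results of these data known. Both limits hold for the other lists too. Flt1, a receptor for vascular endothelial growth factor, stood at 172, 148, 173 and 147 CPM in WT_S6 and at 187, 225, 205, 204 and 219 CPM in CnB1KO_S6. Its lowest knockout library was above its highest control library, with a log2 fold change of 0.38 and an adjusted p of 0.194. Cldn5, which seals the junctions of the blood-brain barrier, had 0.38 with an adjusted p of 0.217. The mean log2 CPM of the 10 markers ran from 5.35 to 5.54 in WT_S6 and from 5.67 to 5.98 in CnB1KO_S6, and their summed level from 505 to 578 CPM and from 622 to 755 CPM. Without library 13, 10 of 10 were higher and 7 had an unadjusted p under 0.05, beside 5.09% of all genes. In the deprived libraries the median was 0.23, with 6 of 10 at an unadjusted p under 0.05 in that direction, beside 8.05% of all genes, and none in the other, beside 7.17%. Such a shift was not particular to endothelial markers there. Oligodendrocyte markers had a median of 0.22, with 9 of 12 higher at that p. For markers of oligodendrocyte precursors these were 5 of 10, of microglia 5 of 12, and of pericytes and smooth muscle 2 of 9. No member of these lists was lower at that p. With the endothelial markers' mean level as a covariate, a setting chosen after the data had been seen, the fold change of Klf2 was 0.50 with an adjusted p of 0.731 by edgeR. Klf4 had 0.47 and Pdgfb 0.27, with the same adjusted p, while Crb1, Wdfy1 and Gm28438 still passed at -2.58, 1.44 and 5.39. The loss was not limited to genes of vessels: Aim2, Snapc1 and Meaf6 lost their calls in this fit too. Ppp3r1 had -0.21 there, with an adjusted p of 0.731 by edgeR. Because the endothelial markers' mean level did not overlap between genotypes after sleep, this fit cannot tell that level apart from genotype.

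Markers of pericytes and smooth muscle and interferon-induced genes had mostly positive fold changes, and none passed. Of 9 measured markers of pericytes and smooth muscle, 9 had a positive fold change, with a median of 0.24, and 6 had an unadjusted p under 0.05, beside 6.25% of all genes in that direction. Without library 13, 5 did, beside 5.09%, with a median of 0.22. Pdgfrb, the receptor for the product of Pdgfb, had a log2 fold change of 0.28 with an adjusted p of 0.312, and Rgs5, a regulator of G protein signalling that marks pericytes, had 0.24 with 0.336. Of 21 interferon-induced genes 18 were positive, beside 7728 of all 14443 genes, with a median of 0.23. Among them 4 had an unadjusted p under 0.05, beside the same 6.25%. Without library 13, 20 were positive, with a median of 0.26, and 4 had an unadjusted p under 0.05. Ifitm3, which blocks virus entry, stood at 11.7 ± 2.15 CPM (SD, n = 4) in WT_S6 and at 17.5 ± 2.49 CPM (SD, n = 5) in CnB1KO_S6, with a fold change of 0.60 and an adjusted p of 0.217. Of 15 measured complement and reactive glia genes 10 had a positive and 5 a negative fold change, with a median of 0.06. Among them 2 had an unadjusted p under 0.05, beside 10.1% of all genes. One was the receptor gene Osmr, which stood at 7.65 ± 1.36 and 11.7 ± 1.24 CPM, with 0.62 and 0.309, and in the deprived libraries it had 0.57 with 0.176. Ifitm3 and Osmr are expressed in vessels as well. Of 12 microglia markers none had an unadjusted p under 0.05, beside 10.1% of all genes, and their median was 0.04. Whether the endothelial markers' level has a part in these differences was not tested for each list.

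**Figure D3:**
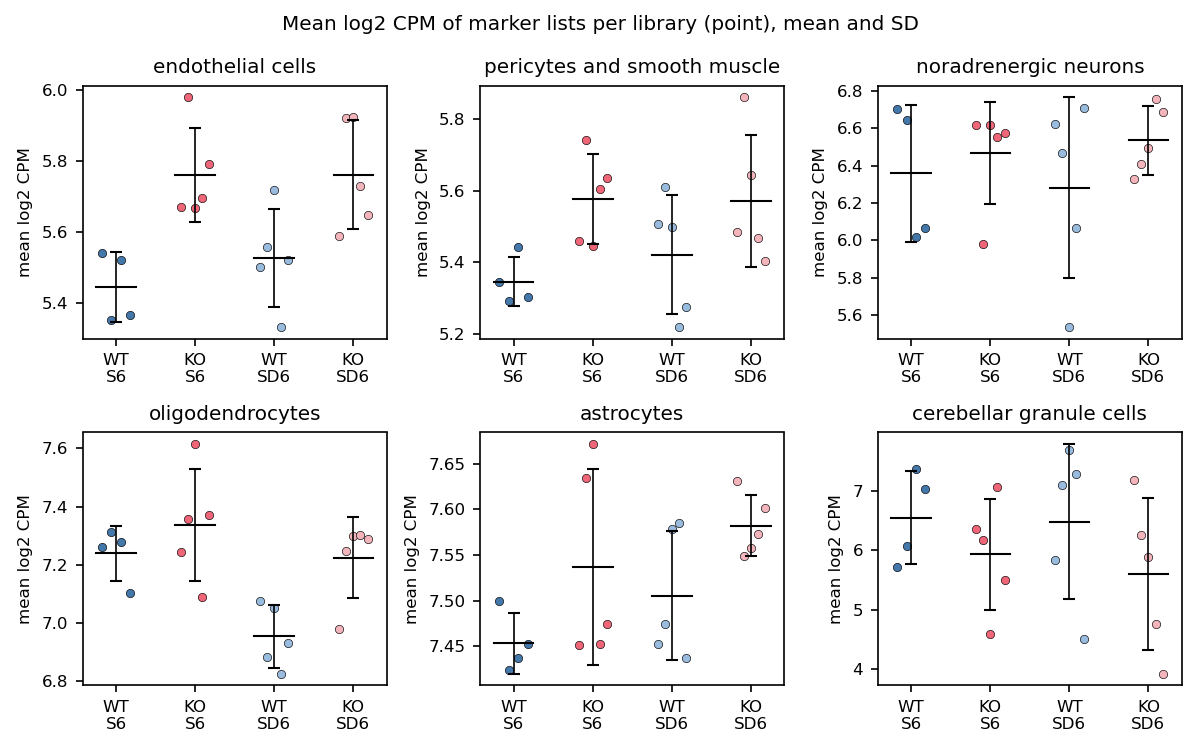
Mean log2 CPM of 6 marker lists in each library (points), with the mean and SD of each group. Endothelial markers after sleep lie between 5.35 and 5.54 in WT_S6 and between 5.67 and 5.98 in CnB1KO_S6 with no overlap, whereas noradrenergic and cerebellar granule cell markers overlap widely.

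No gene of the neuronal lists passed. Of 33 measured potassium channel genes 6 had an unadjusted p under 0.05 with a positive and 1 with a negative fold change, beside 6.25% and 3.84% of all genes. Without library 13 these were 4 and 1, beside 5.09% and 4.36%. Kcnn1 and Kcnn2, which encode the calcium-activated SK channels that slow firing after a spike, had log2 fold changes of 0.55 and 0.28. Kcnn1 stood at 17.97, 20.8, 17.03 and 21.4 CPM in WT_S6 and at 26.6, 29.5, 31.7, 24.6 and 29.9 CPM in CnB1KO_S6. Its libraries did not overlap, yet its adjusted p was 0.187, and in the deprived libraries it had 0.47 with an adjusted p of 0.119. Of 15 GABA-A receptor subunits 13 had a negative fold change, beside 6715 of all 14443 genes, with a median of -0.09. The one with an unadjusted p under 0.05 was Gabra2, in the other direction. Of 32 glutamate receptor and scaffold genes 21 were negative, beside the same 6715, with a median of -0.07. Grik1, a kainate receptor subunit, had -0.32 with an adjusted p of 0.217, and Grm2, an inhibitory metabotropic receptor, had -0.59 with 0.312. Among 24 sodium and calcium channel genes the median was -0.12. Cerebellar granule cell markers had a median of -0.47 and varied widely between libraries. The part of granule cell content in these negative medians was not tested. Cacna2d3, an auxiliary calcium channel subunit, had 0.22 with 0.309, and Cacna1e, the R-type channel, had -0.31 with 0.421. Of 17 measured receptors for wake and sleep signals the histamine receptor gene Hrh2 had the smallest p, with a fold change of 0.34 and an adjusted p of 0.239. None of 6 adrenergic receptors and none of 16 neuropeptides had an unadjusted p under 0.05, beside 10.1% of all genes.

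Genes tied to neuronal activity, the clock and calcineurin-dependent transcription did not pass either. Of 18 measured immediate early genes 2 had an unadjusted p under 0.05 with a positive fold change, beside 6.25% of all genes, and 1 with a negative one (Fosb, -0.57, adjusted p 0.486), beside 3.84%. Arc, which acts in synaptic plasticity, stood at 36.9, 37.2, 39.1 and 27.1 CPM in WT_S6 and at 42.8, 51.9, 41.5, 41.6 and 53.3 CPM in CnB1KO_S6. Its libraries did not overlap. The log2 fold change of Arc was 0.40 with an adjusted p of 0.312, and in the deprived libraries it was 0.49 with 0.111. Jun, a part of the AP-1 factor, had 0.12 with 0.421. Of 19 clock genes Per1, a repressor in the clock loop, had the smallest p, with -0.23 and an adjusted p of 0.365. Of 14 measured genes of calcineurin-responsive factors (NFAT, MEF2, CRTC, FOXO and Tfeb), Nfatc2 had 0.19 and Crtc1 -0.23, with adjusted p of 0.446 and 0.462. Pdk4, which turns cells from glucose to fat as fuel and responds to glucocorticoids, had 0.63 with 0.312. Of 27 kinases and partners linked to sleep need, 1 had an unadjusted p under 0.05 (Hdac5, 0.12, adjusted p 0.470), beside 10.1% of all genes.

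**Figure D4:**
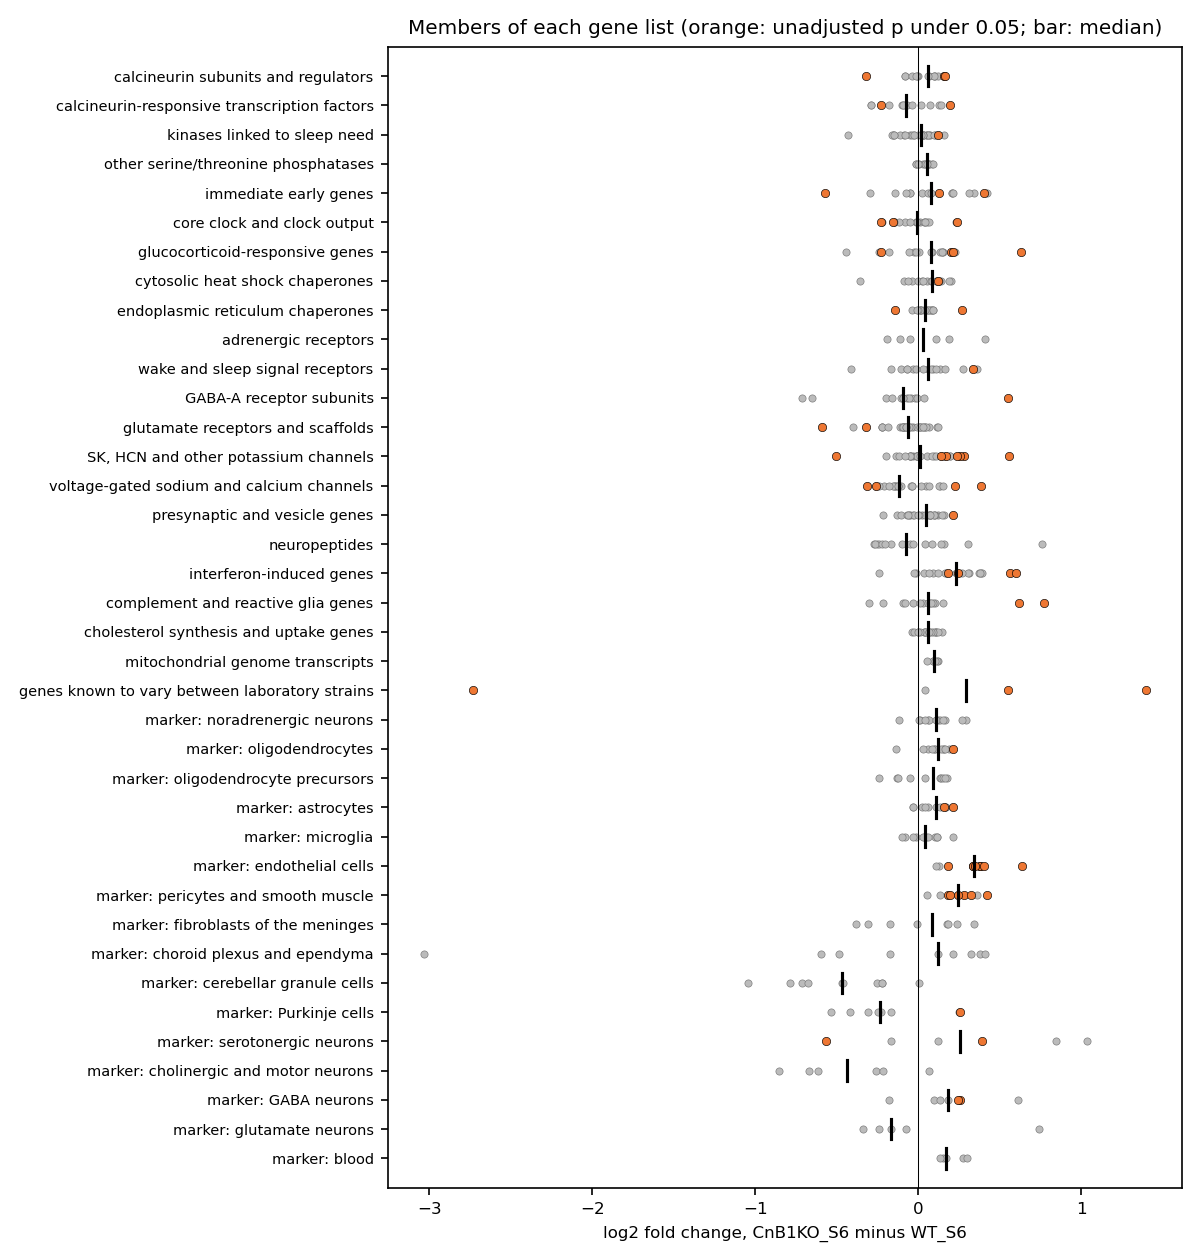
Log2 fold change of CnB1KO_S6 against WT_S6 (horizontal axis) for each measured member of the 38 gene lists, with members at an unadjusted p under 0.05 in orange and the median of each list as a bar. Endothelial markers lie to the right of 0 with a median of 0.34, Crb1 and Wdfy1 are the far points of the strain list, and granule cell markers scatter to the left without a member under that p.

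Cells of neighbouring tissue were read from their markers. Of 10 cerebellar granule cell markers 9 had a negative fold change, with a median of -0.47, and libraries of 1 genotype differed widely. None had an unadjusted p under 0.05, beside 10.1% of all genes. Without library 13, 10 of 10 were negative, with a median of -0.28, and none had an unadjusted p under 0.05. Fat2 stood at 286 ± 219 CPM (SD, n = 4) in WT_S6 and 136 ± 133 CPM (SD, n = 5) in CnB1KO_S6. Ttr, the transthyretin made by choroid plexus, had the most negative fold change of the lists at -3.03, with 17.5 ± 20.4 against 2.14 ± 2.53 CPM and an adjusted p of 0.566. Medians of the oligodendrocyte and astrocyte lists were 0.12 and 0.11, with 1 of 12 and 2 of 11 members higher at an unadjusted p under 0.05, beside 6.25% of all genes. In astrocytes this was the connexin genes Gjb6 and Gja1, at 0.21 and 0.15.

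Snapc1 and Meaf6 had small differences with a narrow spread. Snapc1 (chromosome 12, 73964481 to 73988966) encodes a subunit of the complex that starts transcription of small nuclear RNA genes. It stood at 116, 109, 109 and 117 CPM in WT_S6 and at 98.7, 91.8, 94.98, 96.0 and 95.6 CPM in CnB1KO_S6. All knockout libraries were below all controls. Snapc1 fell 1.18-fold (log2 fold change -0.24, SE 0.04, adjusted p 0.0378 by edgeR). Meaf6 (chromosome 4, 125085134 to 125113238), which encodes a subunit of histone acetyltransferase complexes, fell from 125 ± 6.23 CPM (SD, n = 4) to 105 ± 3.47 CPM (SD, n = 5), a log2 fold change of -0.25 with an adjusted p of 0.0444. In FPKM, Meaf6 stood at 34.7 ± 2.19 (SD, n = 4) and 36.1 ± 13.3 (SD, n = 5). Library 11 stood apart there at 59.6 FPKM, and the other 4 knockout libraries, at 27.1 to 32.2 FPKM, lay below the lowest control at 32.3 FPKM.

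The deprived libraries, which share none with the sleep comparison, gave the same sign for all 7 genes, and 4 passed there. In CnB1KO_SD6 against WT_SD6, 19 genes passed, or 0.132%. Gm28438 had a log2 fold change of 5.82, Crb1 of -2.39, Wdfy1 of 1.18 and Snapc1 of -0.24, with adjusted p of 9.28e-09, 2.85e-05, 0.00100 and 0.0138 by edgeR. Aim2 had -0.88 with 0.0945, Meaf6 -0.12 with 0.226 and Klf2 0.17 with 0.487. The level of Wdfy1 in 1 control library of the deprived set, library 10, was 88.2 CPM against 40.2 to 47.5 CPM in the other 4. In that library Crb1 stood at 18.2 CPM, Gabra2 at 88.1 CPM and Gm28438 at 0.247 CPM, within or at the edge of the other controls. Without library 10 the deprived fold change of Wdfy1 was 1.47. The fit shares 1 estimate of spread per gene over all libraries, so the tests of both sets are not fully independent.

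**Figure D5:**
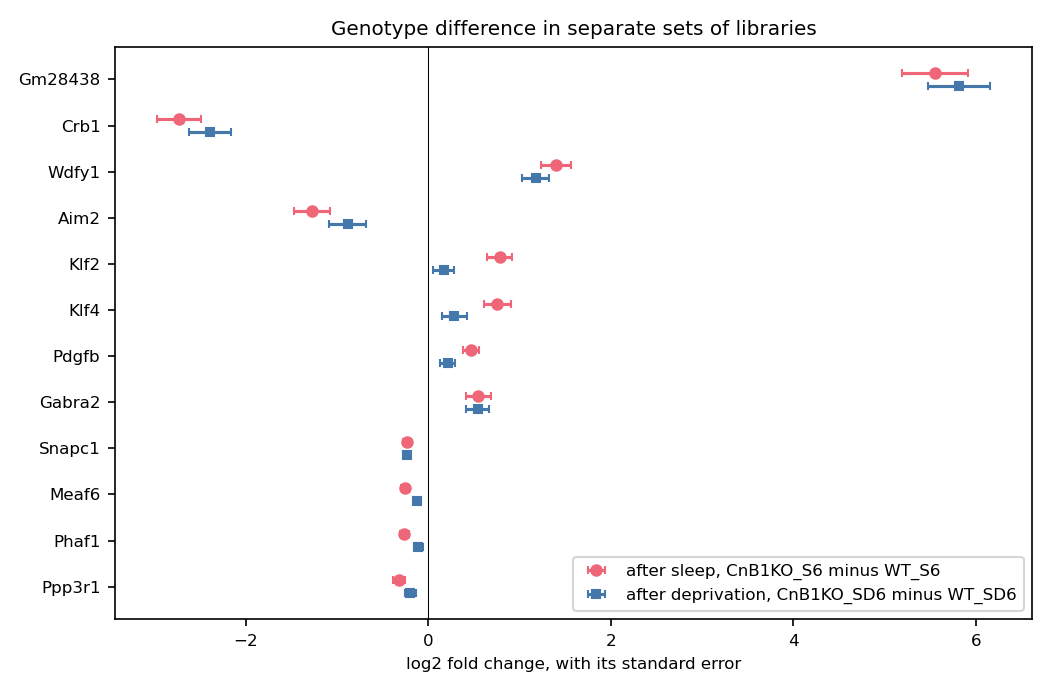
Fitted log2 fold change of knockout against control with its standard error, after sleep (circles) and after deprivation (squares), for the 7 genes that passed after sleep, Klf4, Pdgfb, Phaf1, Gabra2 and Ppp3r1. Gm28438, Crb1, Wdfy1, Gabra2 and Snapc1 lie at nearly the same place in both sets, whereas Klf2 lies at 0.78 after sleep and at 0.17 after deprivation.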

How the data were processed

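RNA of locus coeruleus tissue was sequenced as poly(A) libraries without strand information, per the labels' protocols, so overlapping genes on opposite strands share reads. GRCm38, HTSeq 2.0.4, StringTie 2.2.1, SAMtools 1.6, Picard 2.18.29, Trim Galore 0.6.10 and FastQC 0.12.1 stand in the submitters' processing notes. Aligner, annotation release and duplicate handling: not given in the sources used here. Raw counts for 14443 symbols (1 table) and FPKM (4 tables) were deposited by the authors. Each counted symbol has at least 381 counts summed over the 19 libraries.

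TMM-scaled counts were tested in edgeR 4.0.16 (R 4.3.3, quasi-likelihood F test, 2-sided) in 1 fit of the 4 groups, with 15 residual degrees of freedom and no covariate. The filter filterByExpr kept all 14443 genes. p-values were adjusted over all genes. Fold changes are fitted ones. FPKM were tested as log2(FPKM + 1) with limma 3.58.1 for symbols with 1 line per table and a mean of at least 1 FPKM. This scale understates changes of low genes. Within WT_S6 and within CnB1KO_S6, pairs of libraries differed by 1.38 to 6.73 times counting noise (chi-square per degree of freedom). Each pair thus differed by more than counting noise alone, which cannot show whether any libraries came from the same animal. The functions were tested on simulated data.

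Members and the 38 gene lists (570 genes, 528 measured) were chosen with earlier results of these data known. Genes were named by a rule: Ppp3r1, the genes that passed, the 10 smallest p, the calcineurin genes, and, from each list, up to 4 members where one passed and otherwise 2. Of the genes this rule names, 1 is not reported here. Provisional symbols are left out of that rule except among the 10 smallest p. Th and Dbh were named to check the tissue, and symbols called in FPKM as they passed there, and mt-Nd3 and Fosb were named after their values had been seen. Alternatives were RLE, upper-quartile and cyclic loess scaling, DESeq2 1.42.0, voom, low-count filters, FPKM with pseudocounts of 1 and 0.1, the 9 libraries alone, depth or marker levels as a covariate, and leaving out each library. The endothelial covariate and the counts without library 13 or 10 were added after seeing the data. The labels give no batch, so no value within batches can be had. Positions are from GENCODE M21 (97.6% of symbols matched).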

Additional observations from a re-analysis of the deposited data

Results flagged for a closer look

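In 19 of 214 groups checked, 1 library lay farther from the rest of its group than Dixon's 95% limit allows, and chance alone gives about 1 in 20. In library 13 of CnB1KO_S6, the shallowest, 8 genes did so, all higher than in the other 4 libraries. They were Calm2 (176 CPM against 110 to 125), Calm3 (330 against 210 to 237), Fkbp1a (135 against 101 to 109), Ppia (74.5 against 50.3 to 54.6), Ppp3cb (242 against 198 to 201), Ppp3r1 (152 against 120 to 127), mt-Nd4 (165 against 90.4 to 106) and mt-Nd5 (491 against 288 to 334). Regressed on log2 library total over the 19 libraries, log2 counts had a median slope of 1.35 among the least abundant 2889 genes and of 0.96 among the most abundant 2889, and Ppp3r1 had 0.73. The part of depth in the level of library 13 was not tested beyond the fits in the next section.

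In the other knockout libraries after sleep, Cldn5 stood at 48.9 CPM in library 12 (39.8 to 42.3 in the others) and Ttr at 6.55 CPM in library 15 (0.415 to 1.91). In WT_S6, library 4 had En1 at 49.5 CPM (24.8 to 27.7) and Ppp3cc at 23.9 CPM (26.2 to 26.5). Library 2 had Gad1 at 202 CPM (230 to 234), Nfatc2 at 68.8 CPM (59.7 to 60.5) and Pvalb at 47.8 CPM (62.1 to 64.2). Library 3 had Grm2 at 35.5 CPM (28.4 to 29.2), mt-Nd5 at 302 CPM (323 to 327) and Syt2 at 438 CPM (392 to 399). In WT_SD6, library 10 had Wdfy1 at 88.2 CPM (40.2 to 47.5).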

How the results depend on the processing

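The 7 genes that passed became 13 with DESeq2, 19 with log2 library total as a covariate, 4 with voom, 4 with oligodendrocyte and 4 with granule cell markers as a covariate, 3 with endothelial markers and 3 with the 9 compared libraries alone. Leaving out each library gave 3 to 8. Crb1 and Wdfy1 passed under all 34 alternatives. Gm28438 passed under all but the FPKM fits, in which its fold change turned to -0.18 with a pseudocount of 1 and to -0.18 with 0.1. Klf2 was lost under 16 of the 34, Snapc1 under 18, Meaf6 under 21 and Aim2 under 6. Of the genes passing after sleep, 4 also passed after deprivation, against 2 with either FPKM pseudocount and 3 to 4 when a library was left out.

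Ppp3r1 passed under 7 alternatives: -0.33 with upper-quartile scaling, -0.34 with cyclic loess, -0.33 with DESeq2, -0.36 with either FPKM pseudocount, -0.37 with library total as a covariate and -0.39 without library 13. Its fold change ran from -0.39 to -0.30 when a library was left out, and from -0.39 to -0.21 over the 34, with adjusted p from 6.46e-05 to 0.731. Gabra2 passed without library 15 (0.66, adjusted p 0.0496). Removing WT_S6 library 2 or 4, or CnB1KO_S6 library 11 or 12, left 3 genes, Gm28438, Crb1 and Wdfy1. No paired analysis was possible because the count columns carry library numbers and not the labels' replicate numbers. Genes under about 10 CPM, such as Aim2, rest on few reads per library.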
